A study of Mus musculus with 2 samples.

Results

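Alternative activation is the state that macrophages enter in response to the type 2 cytokines interleukin-4 and interleukin-13, and 9 of its genes were followed here through the leukocytes of mouse brown adipose tissue (BAT). *Il4ra* and *Il13ra1* encode receptor chains, *Stat6* and *Socs6* encode signalling proteins, and *Retnla*, *Chil3*, *Clec10a*, *Mgl2* and *Ear2* encode products associated with the activated state. The 9 genes were picked by name, out of 32285 genes counted in each library, and all 9 were detected in both libraries.

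Interleukin-4 and interleukin-13 both signal through the chain encoded by *Il4ra*, which pairs either with the common gamma chain encoded by *Il2rg* or with the chain encoded by *Il13ra1*. Janus kinases bound to these chains phosphorylate STAT6, which then enters the nucleus and activates its target genes. In adipose tissue, macrophages in this state are known mainly from lean animals, and eosinophils and group 2 innate lymphoid cells (ILC2) are the best known sources of the cytokines.

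The study asked how leukocytes change in BAT whose adipocytes lack ATGL, the lipase encoded by *Pnpla2* that starts the breakdown of stored triglycerides. All mice were male AdipoQ-CreERT2 ATGLfl/fl animals on the C57Bl/6 strain, labelled as 16 weeks old, whereas the published legend for these cells gives a younger age. Animals received vehicle (control) or tamoxifen (Adipo Δ/Δ) every other day for 1 week, were rested for 2 weeks, and their CD45+ DAPI- cells were then sorted and sequenced with a 10x Genomics 3′ kit. The control mice thus carried the Cre transgene and the floxed alleles too, so that tamoxifen itself and the loss of ATGL cannot be told apart.

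The Cre is driven by the adiponectin promoter of adipocytes, which makes sorted leukocytes no check of the deletion. *Pnpla2* was measured at 37.1 CPM (counts per 1000000 UMIs of the cells named, 33.6 to 40.9) in control cells and 42.2 CPM (38.5 to 46.1) in cells of Adipo Δ/Δ mice. UMIs are molecular identifiers, each standing for 1 captured RNA molecule. There was 1 library per condition, and how many mice went into each is not given in the sources used here. No p-value is therefore reported, and all intervals are exact 95% intervals that cover counting error only.

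After filtering, 2279 control cells with 10753113 UMIs and 2016 Adipo Δ/Δ cells with 11316418 UMIs remained, at medians of 3678 and 3942 UMIs per cell. The libraries shared 4 cell barcodes. *Ptprc*, which encodes CD45, had a UMI in 80.4% of cells of either library. Haemoglobin transcripts stood apart, with the summed level of 4 genes at 1091 CPM in control cells and 8.84 CPM in Adipo Δ/Δ cells, and their part in the results below was not tested. Joint clustering without the 9 genes and the other listed pathway genes gave 17 clusters, which were named from markers other than the 9 genes and are called "-like" for that reason. The macrophage-like class took 4 clusters, of which 3 matched a subset: resident (led by *Folr2*, *Pf4* and *C1qc*), matrix (*Lyz1*, *Fcrls* and *Ecm1* besides *Retnla*) and lipid-associated (*Gpnmb*, *Fabp5* and *Spp1*). The fourth matched no subset, had medians of only 935 and 963 UMIs per cell, and held 2.68% of control against 11.4% of Adipo Δ/Δ cells. Control lipid-associated cells numbered 12, so that their levels rest on few UMIs.

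**Figure D1:**
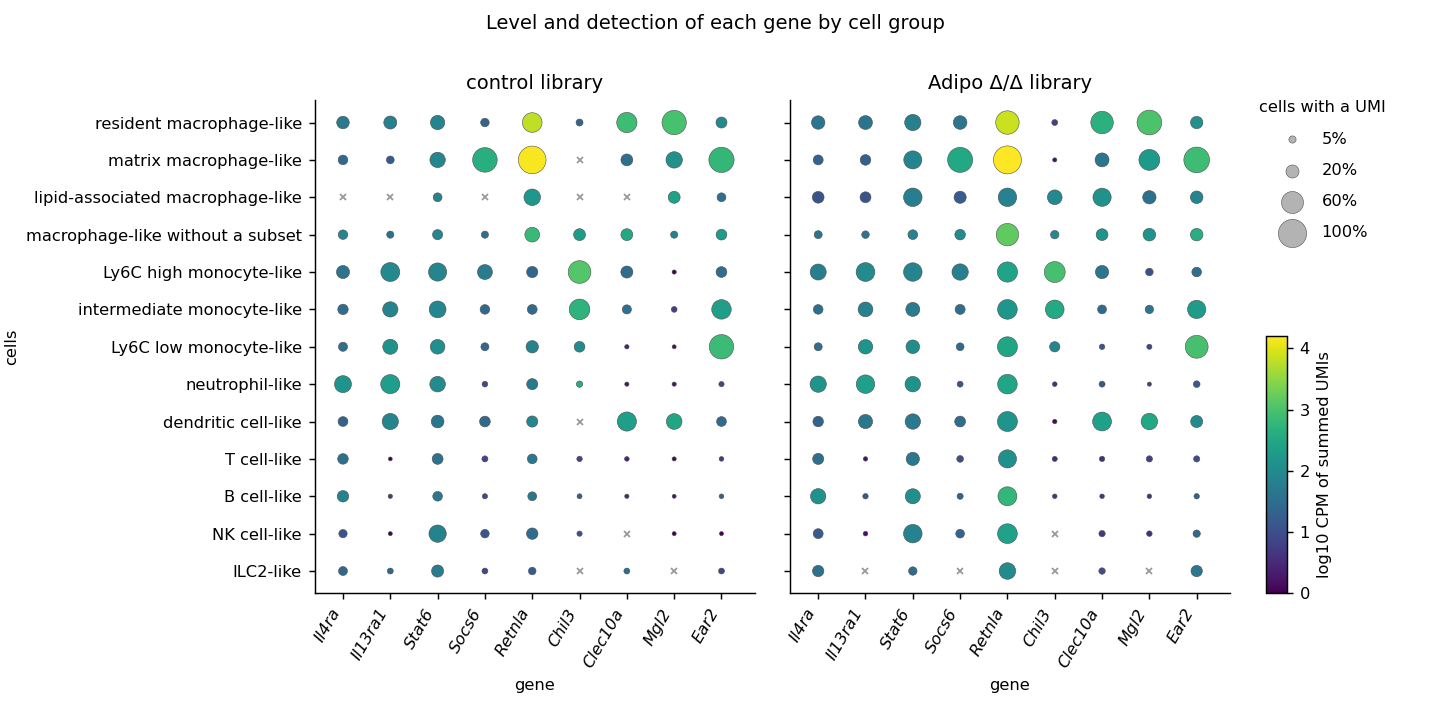
Level and detection of the 9 genes in 13 named cell groups of each library. Colour gives log10 CPM of the summed UMIs, dot area gives the share of cells with a UMI, and a cross marks 0 UMIs. *Retnla* peaks in matrix macrophage-like, *Clec10a* and *Mgl2* in resident macrophage-like, *Chil3* in Ly6C high monocyte-like and *Ear2* in Ly6C low monocyte-like cells of both libraries.

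Over all kept cells, the effector genes differed widely between libraries. *Retnla* was at 546 CPM in control cells and 2742 CPM in Adipo Δ/Δ cells, a ratio of 5.02 (4.89 to 5.17). *Mgl2* was 3.83-fold (3.45 to 4.25), *Clec10a* 2.14-fold (1.91 to 2.39), *Ear2* 2.05-fold (1.91 to 2.21) and *Socs6* 1.97-fold (1.74 to 2.23) higher in the Adipo Δ/Δ library. *Chil3* went the other way, with 379 CPM in control cells and 130.1 CPM in Adipo Δ/Δ cells, or 2.92-fold lower. The receptor and *Stat6* totals lay closer together, at ratios of 0.821 (0.719 to 0.937) for *Il4ra*, 0.679 (0.605 to 0.761) for *Il13ra1* and 0.971 (0.878 to 1.07) for *Stat6*. These totals moved together with the make-up of the libraries. Macrophage-like cells supplied 5.87% of all UMIs in control cells and 33.5% in Adipo Δ/Δ cells, and monocyte-like cells 38.9% and 20.2%. All values below are therefore given within a cell group.

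**Figure D2:**
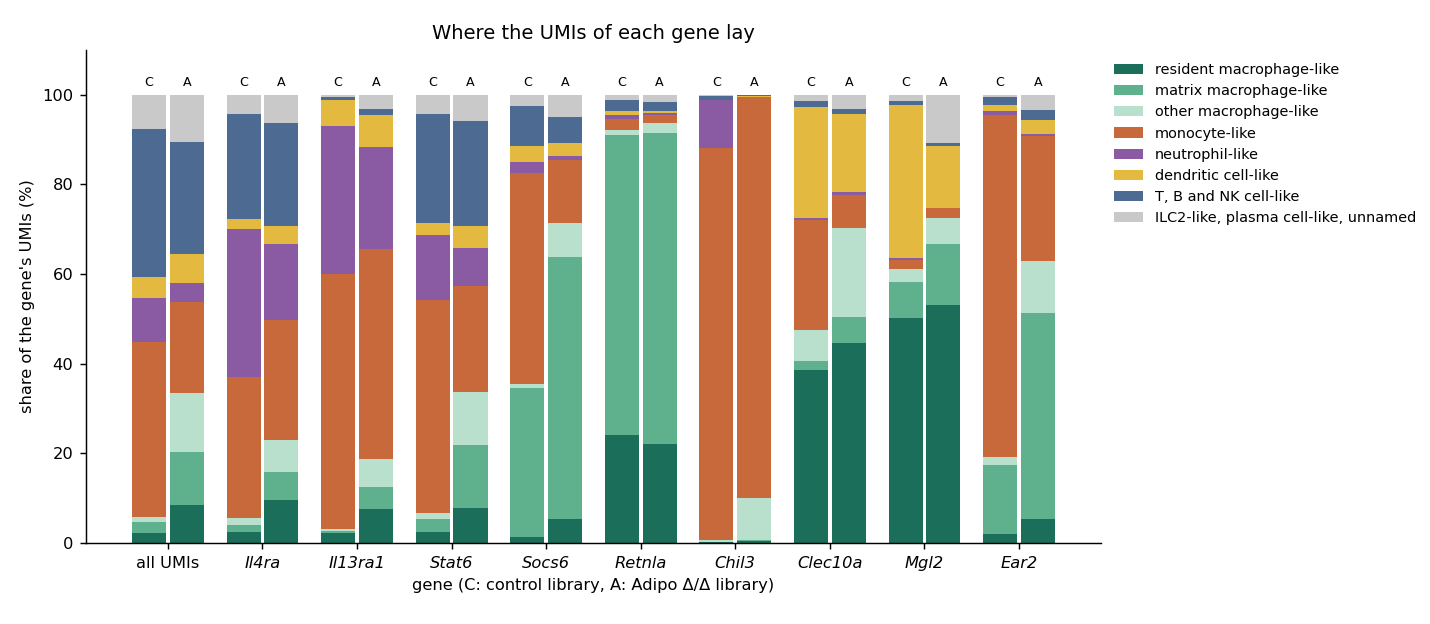
Share of each gene's UMIs (y axis, percent) that lay in each group of cells, with control (C) and Adipo Δ/Δ (A) bars side by side and the share of all UMIs on the left. Resident and matrix macrophage-like cells together held 91.0% and 91.4% of *Retnla* UMIs, although they held 4.74% and 20.4% of all UMIs.

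Among the receptor genes, *Il4ra* (ENSMUSG00000030748, GRCm38 chromosome 7, 125552120 to 125579474) was low in most cells and highest in neutrophil-like cells. There it was measured at 152 CPM (129 to 177) in control cells and 145 CPM (113 to 183) in cells of Adipo Δ/Δ mice, with a UMI in 35.1% and 32.2% of cells. Macrophage-like cells without a subset had 85.6 CPM (37.0 to 169) and 41.5 CPM (24.2 to 66.5), from 8 and 17 UMIs. B cell-like cells stood at 73.2 CPM (52.8 to 99.0) and 140.2 CPM (96.5 to 197), and the second of these values could not be separated from that of neutrophil-like cells. Resident macrophage-like cells stood at 51.4 CPM (26.6 to 89.8) and 42.3 CPM (30.2 to 57.6), and matrix macrophage-like cells at 25.3 CPM (10.2 to 52.2) and 19.1 CPM (12.5 to 28.0). The macrophage-like subsets thus did not stand out by this transcript. In Ly6C high monocyte-like cells, *Il4ra* was 1.59-fold (1.16 to 2.17) higher in the Adipo Δ/Δ library, at 63.2 CPM against 39.8 CPM in control.

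*Il13ra1* (ENSMUSG00000017057, chromosome X, 36112110 to 36171259), which completes the second receptor for both cytokines, was a myeloid transcript. Its highest levels were again in neutrophil-like cells, at 222 CPM (194 to 252) and 237 CPM (196 to 284). Ly6C low monocyte-like cells followed at 132 CPM (107 to 162) and 150.4 CPM (120 to 186), ahead of Ly6C high cells at 96.6 CPM (84.7 to 110) and 97.3 CPM (80.5 to 117). T, B and NK cell-like cells together showed 1.41 and 2.47 CPM, from 5 and 7 UMIs. In resident and matrix macrophage-like cells the level was between 14.5 and 64.3 CPM, below the point values of each monocyte-like cluster. Both receptor genes were thus detected in macrophage-like cells of both libraries, but at lower levels than in neutrophil-like cells.

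*Stat6* (ENSMUSG00000002147, chromosome 10, 127642986 to 127660957), the transcription factor that both receptors activate, was spread over all classes. In control cells it ranged from 35.0 CPM (26.3 to 45.6) in T cell-like to 121 CPM (96.7 to 149) in Ly6C low monocyte-like cells, among groups of at least 20 cells. In Adipo Δ/Δ cells neutrophil-like cells, at 139 CPM (108 to 176), B cell-like cells, at 123 CPM (82.5 to 177), and Ly6C low monocyte-like cells, at 116 CPM (89.8 to 148), could not be ranked within their intervals. Matrix macrophage-like cells of the libraries stood at 83.3 CPM (52.8 to 125) and 83.0 CPM (68.4 to 99.8), a ratio of 0.997 (0.632 to 1.64). An exception to this evenness was seen in B cell-like cells, with 48.8 CPM in control and a ratio of 2.53 (1.45 to 4.40) from 28 and 29 UMIs.

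*Socs6* (ENSMUSG00000056153) encodes a member of the suppressor of cytokine signalling family, whose members bind activated receptors and can promote their degradation. Unlike the receptor genes, it had its highest level in matrix macrophage-like cells, at 449 CPM (373 to 535) in control cells and 331 CPM (301 to 363) in cells of Adipo Δ/Δ mice. The ratio was 0.738 (0.604 to 0.908), and 75.5% and 78.5% of these cells held a UMI. The next level among groups of at least 20 cells was 53.6 CPM (44.8 to 63.6) in control Ly6C high monocyte-like cells and 100.1 CPM (71.8 to 136) in Adipo Δ/Δ macrophage-like cells without a subset. Matrix macrophage-like cells held 33.2% of *Socs6* UMIs in control cells and 58.4% in Adipo Δ/Δ cells, beside 2.57% and 12.0% of all UMIs. Ly6C high monocyte-like cells, which are more numerous, held 35.4% and 10.1%, slightly more than the matrix cells in control. About 5.96% of the 55-base windows of its transcripts, and 11.35% of those in their last 500 bases, were also found in *Gm9449*. The assignment of some reads is therefore uncertain, and how the counting treated shared reads was not tested.

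*Retnla* (ENSMUSG00000061100, chromosome 16, 48842551 to 48844461) encodes RELM-alpha, a small secreted protein also called FIZZ1 that is among the strongest STAT6 target genes of mouse macrophages. Its promoter is printed because it was the single one of 7 members' promoters that held the pattern TTC, any 4 bases, GAA, the spacing preferred by STAT6. The 192 bases are given on the plus strand (RefSeq, GRCm38.p6, chr16:48842359-48842550) and end at the base before the gene start given above, which lies upstream of the RefSeq start. The capitals mark the pattern, whose position of 145 to 136 bases before the start is counted from the RefSeq start.
*Retnla*: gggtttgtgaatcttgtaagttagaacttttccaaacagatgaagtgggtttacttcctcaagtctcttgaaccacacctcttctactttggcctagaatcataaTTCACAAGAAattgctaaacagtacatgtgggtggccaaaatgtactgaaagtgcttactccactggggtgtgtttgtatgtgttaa
The pattern, which reads the same on both strands, stood in 2284 of 32851 promoters of the same length (250 bases before to 50 after each start), or 6.95%. A match is a description of the sequence and not a binding site.

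In matrix macrophage-like cells, *Retnla* was an abundant transcript, at 14220.3 CPM (13779 to 14672) in control cells and 15830.2 CPM (15620 to 16043) in cells of Adipo Δ/Δ mice. The ratio was 1.11 (1.08 to 1.15). Nearly every cell took part, with a UMI in 47 of 49 control cells (95.9%) and 169 of 172 Adipo Δ/Δ cells (98.3%), or 95.9% and 89.6% after each cell was thinned to 1000 UMIs. The medians were 49 and 54.5 *Retnla* UMIs per cell, at depths of 3998 and 6115.5 UMIs. The highest cells reached 420 and 1530 UMIs.

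Resident macrophage-like cells came second, at 6058 CPM (5746 to 6382) and 7216 CPM (7045 to 7389), a ratio of 1.19 (1.12 to 1.26). Here the transcript was unevenly spread, with a UMI in 47.7% and 68.6% of cells, or 41.9% and 47.0% after thinning, at median depths of 2721 and 5847 UMIs. Only 14 of 65 control cells and 50 of 140 Adipo Δ/Δ cells had at least 10 UMIs, yet they held 97.1% and 98.7% of the *Retnla* UMIs of these cells. Compared with the other resident cells, they had more *Clec10a* in Adipo Δ/Δ, at 894 against 311 CPM (786 to 1013 and 270.2 to 356). In control the *Clec10a* values were 918 against 680 CPM, with overlapping intervals (705 to 1174 and 560 to 818). *Mgl2* did not separate them as clearly, at 801 against 1020 CPM in control cells and 1133 against 956 CPM in Adipo Δ/Δ cells. The resident marker *Folr2* was higher in the *Retnla*-rich cells too, at 1399 against 722 CPM in control and 1854 against 495 CPM in Adipo Δ/Δ. Of the matrix markers, *Lyz1* was at 189 against 109 CPM in control, with overlapping intervals, and 1267 against 20.9 CPM in Adipo Δ/Δ, while *Fcrls* was at 277 against 261 CPM and 438 against 212 CPM. *Ecm1* was at 189 against 72.8 CPM, with overlapping intervals, and 286 against 106 CPM. *Mrc1* turned between libraries, at 1195 against 1778 CPM in control and 2042 against 1238 CPM in Adipo Δ/Δ. *Ear2* was at 262 against 24.3 CPM in control and 101 against 147 CPM in Adipo Δ/Δ, the latter with overlapping intervals. Cells of mixed or intermediate identity were not tested for.

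**Figure D3:**
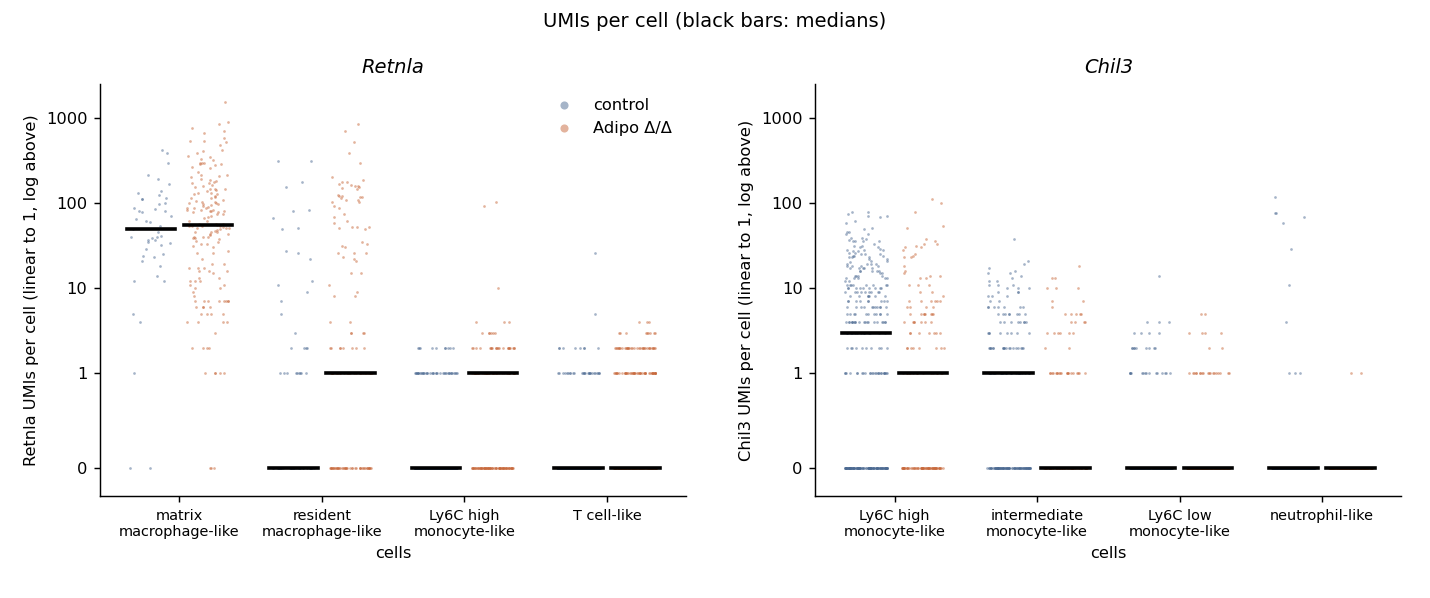
UMIs per cell (y axis, linear from 0 to 1 and logarithmic above) of *Retnla* and *Chil3* in 4 cell groups each, with 1 point per cell and black bars at the medians. *Retnla* has a median of 49 UMIs in control cells and 54.5 UMIs in Adipo Δ/Δ cells of the matrix subset, whereas most resident cells hold few UMIs and some hold over 100.

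In macrophage-like cells without a subset, *Retnla* was 2.23-fold (1.72 to 2.94) higher in the Adipo Δ/Δ library, at 1506 CPM against 674 CPM. Detection differed in the same direction, at 26.2% and 62.4% of cells, and at 18.5% and 47.6% after thinning. Median depths here were 935 and 963 UMIs, so that the thinned shares leave out most cells of this cluster. Lipid-associated cells had little *Retnla*, with 177 CPM (57.4 to 412) from 5 UMIs in control cells and 69.7 CPM (54.8 to 87.3) in cells of Adipo Δ/Δ mice.

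*Retnla* UMIs also appeared in cells that are not known to express the gene, and did so more in the Adipo Δ/Δ library. T, B and NK cell-like cells had 41.2 CPM (34.8 to 48.5) in control cells and 226 CPM (209 to 244) in cells of Adipo Δ/Δ mice, a ratio of 5.49 (4.58 to 6.61). A UMI was found in 10.9% and 43.7% of these cells, at median depths of 3418.5 and 4920.5 UMIs, and in 4.04% and 13.7% after thinning. Monocyte-like cells gave nearly the same figures, with 33.5 CPM (28.2 to 39.5) and 254 CPM (234 to 276), 14.6% and 49.3% of cells, median depths of 4714 and 3314 UMIs, and 5.16% and 19.2% after thinning. A few cells carried much of both values, since 4 Adipo Δ/Δ lymphoid cells held 301 of 640 UMIs and 4 monocyte-like cells held 216 of 580. The ratios were 5.49 in lymphoid and 7.59 (6.30 to 9.19) in monocyte-like cells, with 11.4 (8.60 to 15.4) in Ly6C high cells. Without cells of at least 10 *Retnla* UMIs, left out after the data were seen, lymphoid cells had 34.0 and 122 CPM, a ratio of 3.60 (2.92 to 4.47), and monocyte-like cells 33.5 and 162 CPM, a ratio of 4.85 (3.98 to 5.93). Ly6C high cells then had a ratio of 4.33 (3.14 to 6.04). *Retnla* was thus higher in Adipo Δ/Δ also in cells that should lack it, and how much of the monocyte-like difference was background was not tested. Neutrophil-like cells lay in the same range, at 302 CPM in the Adipo Δ/Δ library and a ratio of 6.04 (4.39 to 8.43). Dendritic cell-like cells had 148 CPM in that library and a lower ratio of 1.67 (1.17 to 2.41).

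*Chil3* (ENSMUSG00000040809, chromosome 3, 106147554 to 106167564, minus strand) encodes Ym1, a secreted chitinase-like protein that is used as a marker of alternative activation and is also known from monocytes and maturing neutrophils. Its promoter held no TTC, 4 bases, GAA pattern but was the single one of the 7 with the 3-base spacing of other STAT proteins, which stood in 2726 of the 32851 promoters, or 8.30%. The 250 bases before the start are printed on the minus strand (RefSeq, GRCm38.p6, chr3:106167565-106167814), with the pattern in capitals, 172 to 164 bases before the RefSeq start.
*Chil3*: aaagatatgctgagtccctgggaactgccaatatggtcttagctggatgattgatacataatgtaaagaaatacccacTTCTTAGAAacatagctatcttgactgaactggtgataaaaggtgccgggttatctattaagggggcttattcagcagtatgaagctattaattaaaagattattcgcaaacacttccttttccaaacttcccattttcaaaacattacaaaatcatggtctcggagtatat
The promoters of *Clec10a* and *Socs6* were not among those compared, and the other 5 promoters held neither pattern.

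In these data *Chil3* was a monocyte-like transcript. Ly6C high monocyte-like cells had 1210.2 CPM (1167 to 1254) in control cells and 909.8 CPM (857 to 965) in cells of Adipo Δ/Δ mice, with a UMI in 64.2% and 54.1% of cells. Intermediate monocyte-like cells had 516 CPM (473 to 562) and 339 CPM (291 to 393), and Ly6C low cells 99.8 CPM (78.0 to 126) and 80.6 CPM (58.8 to 108). The order of the 3 clusters was thus the same in both libraries, and Ly6C high and intermediate cells together held 85.8% and 86.3% of *Chil3* UMIs. Each of the 3 clusters was lower in Adipo Δ/Δ, at ratios of 0.752 (0.701 to 0.806), 0.657 (0.551 to 0.781) and 0.807 (0.543 to 1.19), the last of which includes 1.

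*Chil3* was at or near 0 in the macrophage-like cells that were richest in *Retnla*. Matrix macrophage-like cells held 0 UMIs in control, which allows up to 10.9 CPM, and 2 UMIs in Adipo Δ/Δ, and resident cells held 5 and 6 UMIs. Lipid-associated cells were different, with 101 UMIs, or 93.8 CPM (76.4 to 114), in the 81 cells from Adipo Δ/Δ mice and 0 UMIs in the 12 control cells, which allows up to 106 CPM and so no comparison. Macrophage-like cells without a subset had 203 CPM (122 to 318) and 95.2 CPM (67.7 to 130.2). In T, B and NK cell-like cells the gene was at 10.4 and 1.77 CPM.

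A few neutrophil-like cells accounted for a second source of *Chil3* in control. The class had 415 CPM (377 to 456), but 433 of its 440 UMIs were found in 7 of 313 cells. The same 7 cells held 3546 UMIs of *Camp*, 3427 of *Ngp* and 925 of *Ltf*, granule genes of immature neutrophils, against 2, 87 and 0 UMIs in the remaining 306 cells. Their median depth was 13933 UMIs against 2927.5. The 171 Adipo Δ/Δ neutrophil-like cells held 2 *Chil3* UMIs, 2 *Camp* UMIs, 27 *Ngp* UMIs and 0 *Ltf* UMIs. The 7 cells were singled out after their values were seen. Reads of *Chil3* can also be shared with a near copy, since 23.9% of its 55-base windows were found in *Chil4* or *Gm6522*. The share was 16.7% in the last 500 bases of its transcripts. *Chil4* itself had 1 UMI in control cells and 0 in Adipo Δ/Δ cells.

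*Clec10a* (ENSMUSG00000000318, chromosome 11, 70156197 to 70170834) and *Mgl2* (ENSMUSG00000040950, chromosome 11, 70130329 to 70137550) encode CD301a and CD301b, C-type lectins that bind galactose-type sugars and are used as surface markers of alternative activation. They are neighbours, with 18646 bases between them on the same strand. They also share 237 windows of 55 bases, which make up part of the 7.76% and 11.3% of windows found in another gene. Within the last 500 bases of their transcripts, these shares were 12.0% and 7.99%. A share of the reads of either gene may thus be uncertain.

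Both lectin genes peaked in resident macrophage-like cells. *Clec10a* was at 749.8 CPM (643 to 869) in control cells and 482 CPM (438 to 528) in cells of Adipo Δ/Δ mice, 1.56-fold (1.30 to 1.86) lower. *Mgl2* was at 955 CPM (834 to 1089) and 1008 CPM (945 to 1074), a ratio of 1.05 (0.911 to 1.23). The neighbouring genes thus gave different ratios in the same cells, whose intervals did not overlap. A *Clec10a* UMI was found in 50.8% and 62.9% of resident cells, or 33.9% and 28.4% after thinning, at median depths of 2721 and 5847 UMIs, so that the order of the shares turned with thinning.

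Dendritic cell-like cells were another site of both genes. *Clec10a* was at 219 CPM (180.1 to 263) and 239 CPM (205 to 277) there, and *Mgl2* at 294 CPM (249 to 345) and 332 CPM (292 to 376). Neither gene differed between libraries beyond counting error, with ratios of 1.09 (0.858 to 1.40) and 1.13 (0.919 to 1.39). In matrix macrophage-like cells, *Mgl2* reached 130.3 CPM (91.3 to 180.4) and 180.0 CPM (158 to 204) and *Clec10a* 32.6 CPM (14.9 to 61.9) and 42.6 CPM (32.4 to 55.1).

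Some of the remaining cells separated the pair. *Clec10a* without *Mgl2* was seen in Ly6C high monocyte-like cells, where *Clec10a* had 29.2 CPM (22.9 to 36.8) in control cells and 44.1 CPM (33.0 to 57.6) in cells of Adipo Δ/Δ mice, from 72 and 53 UMIs, and *Mgl2* had 2 and 13 UMIs. T, B and NK cell-like cells gave 1.69 and 4.24 CPM of *Clec10a*, with a UMI in 0.726% and 2.36% of cells, against 16.9% and 21.0% of Ly6C high cells at medians of 7359.5 and 7125 UMIs. In Adipo Δ/Δ lipid-associated cells, *Clec10a* was at 133 CPM (112 to 156) and *Mgl2* at 37.1 CPM (26.5 to 50.6). Cells left unnamed, among them dividing cells, had 6 *Mgl2* UMIs in control cells and 191 in Adipo Δ/Δ cells, or 11.3 CPM (4.15 to 24.6) and 215 CPM (185 to 247). *Clec10a* was higher in the Adipo Δ/Δ library there too, with 2 and 31 UMIs and a ratio of 9.25 (2.35 to 79.7). In macrophage-like cells without a subset *Clec10a* was 2.26-fold (1.42 to 3.55) lower in Adipo Δ/Δ, at 146 against 332 CPM, whereas *Mgl2* had a ratio of 2.36 (1.02 to 6.67), from 6 and 62 UMIs.

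*Ear2* (ENSMUSG00000072596, chromosome 14, 44102654 to 44103534) encodes an eosinophil-associated ribonuclease, one of a family of near copies that type 2 cytokines raise in macrophages. Ly6C low monocyte-like cells had the highest level, at 723 CPM (661 to 788) in control cells and 904 CPM (827 to 987) in cells of Adipo Δ/Δ mice, a ratio of 1.25 (1.10 to 1.42). Matrix macrophage-like cells followed at 594 CPM (506 to 692) and 785 CPM (739 to 834), a ratio of 1.32 (1.12 to 1.57), and the intervals of both cell groups overlapped within each library. *Ear2* was lower in intermediate monocyte-like cells, at 229 CPM (201 to 261) and 205 CPM (168 to 248), and low in Ly6C high cells, at 31.7 CPM (25.0 to 39.5) and 31.6 CPM (22.4 to 43.4). Across the monocyte-like clusters its order was therefore the reverse of that of *Chil3*.

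No cluster matched eosinophils, for which the ribonuclease family is named. *Epx*, which encodes eosinophil peroxidase, had 0 UMIs in both libraries, and the 6 genes of the eosinophil list summed to 6.79 CPM in control cells and 7.51 CPM in Adipo Δ/Δ cells. Of the windows of *Ear2*, 37.0% were also found in other genes, mostly *Ear10* and *Ear1*, as were 34.1% of those in the last 500 bases. The assignment of its reads is accordingly uncertain. *Ear10* had 0 UMIs in both libraries and *Ear1* had 0 and 3.

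For the comparison between libraries, a gene counted as past the fold where its CPM ratio within a class was at least 1.5 in either direction and at least 10 UMIs were present. All 9 genes reached 10 UMIs in both classes. In macrophage-like cells none of the 9 was past the fold upwards, where 20.7% of 10286 genes were, and 2 of 9 were past it downwards, where 16% were. The 2 genes were *Clec10a*, with a ratio of 0.554 (0.475 to 0.649), and *Il4ra*, with a ratio of 0.592 (0.383 to 0.944) from 27 and 96 UMIs. The median log2 ratio of the 9 genes was -0.33, against 0.07 over all 10286 genes.

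*Retnla* itself had a ratio of 0.894 (0.869 to 0.921) in macrophage-like cells as a whole, although it was above 1 within the resident and the matrix subset and in the cells without a subset. The libraries drew the class from different clusters. Resident cells were the largest control cluster by number, with 65 of 187 cells, and cells without a subset the largest Adipo Δ/Δ cluster, with 229 of 622. By UMIs, on which the class level rests, matrix cells came first in both libraries, at 2.57% of the control and 12.0% of the Adipo Δ/Δ total out of the 5.87% and 33.5% of the class. Lipid-associated cells, in which *Retnla* was low, supplied 0.263% and 9.51%, and cells without a subset 0.869% and 3.62%. With clusters weighted to their share in both libraries, the *Retnla* ratio was 1.14 and neither *Clec10a* (0.777) nor *Il4ra* (0.795) was past the fold. Without the cells that matched no subset, an alternative chosen after the data were seen, *Clec10a*, *Il4ra*, *Il13ra1* (0.653, 0.391 to 1.14) and *Socs6* (0.629, 0.517 to 0.769) were past the fold downwards, and *Chil3* (3.47, 1.44 to 10.9, from 5 and 109 UMIs) upwards. The latter UMIs came mostly from Adipo Δ/Δ lipid-associated cells. After thinning each cell to 1000 UMIs, *Retnla*, *Mgl2* and *Socs6* had log2 ratios of 0.18, 0.05 and 0.41 in this class, where the unthinned ratios were below 1.

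**Figure D4:**
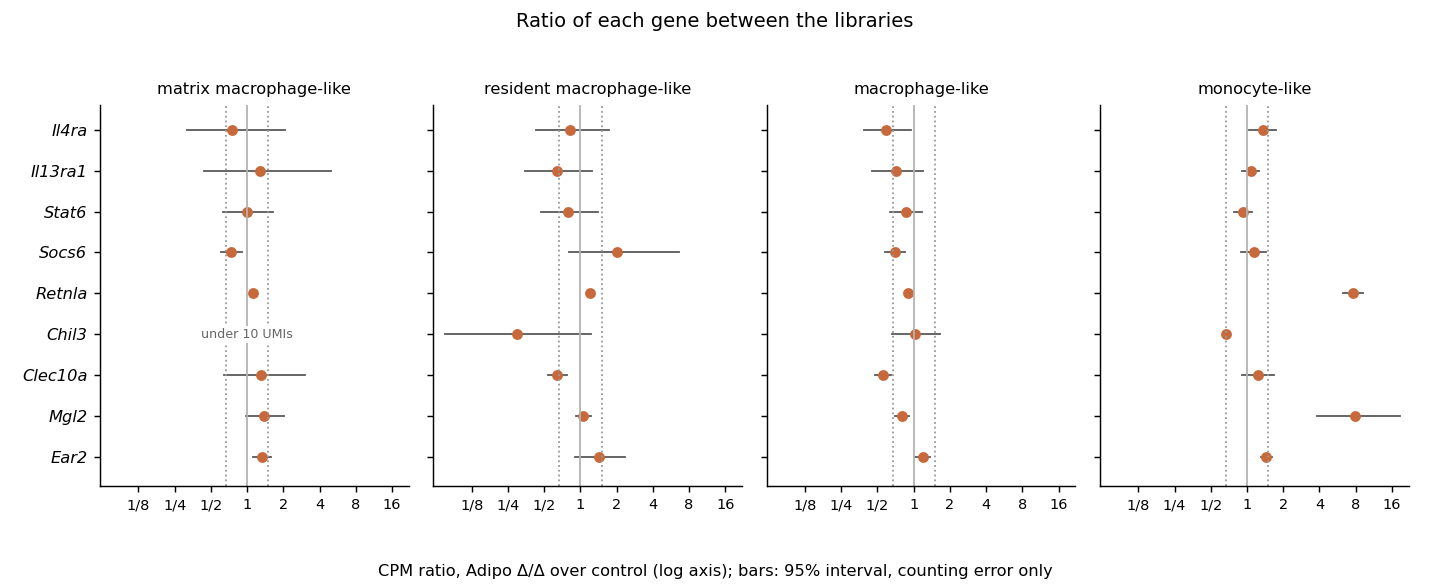
CPM ratio of each gene, Adipo Δ/Δ over control (log axis), in matrix and resident macrophage-like cells and in the macrophage-like and monocyte-like classes as wholes. Points are ratios, bars exact 95% intervals for counting error, and dotted lines mark 1.5-fold. *Retnla* lies at 1.11 in matrix and 1.19 in resident cells but at 7.59 in monocyte-like cells.

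In monocyte-like cells, 2 of 9 genes were past the fold upwards, beside 13.7% of 10066 genes, and none downwards, beside 5.66%. The 2 were *Retnla*, described above, and *Mgl2*, with a ratio of 7.94 (3.78 to 18.6) from 9 and 39 UMIs. *Mgl2* had a UMI in 1.04% and 4.28% of monocyte-like cells, or 0.558% and 0.924% after thinning. In T, B and NK cell-like cells it was found in 0.484% and 2.56%, and its ratio there was 4.38 (1.38 to 18.3). The *Mgl2* levels were 2.15 and 17.1 CPM in monocyte-like cells, against 1.13 and 4.95 CPM in T, B and NK cell-like cells. Adipo Δ/Δ intermediate monocyte-like cells reached 42.1 CPM, from 22 UMIs. How much of the monocyte-like *Mgl2* was background was not tested. *Chil3* lay just inside the fold, 1.48-fold (1.39 to 1.58) lower. *Ear2*, at a ratio of 1.45 (1.30 to 1.60), stood just inside it on the other side, and at 1.14 with clusters weighted to their share in both libraries. The median log2 ratio was 0.31 for the 9 genes and 0.11 over all 10066 genes.

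Detection of pairs of genes in single cells was set beside that of each gene over all cells of the subset. Among matrix macrophage-like cells with an *Ear2* UMI, 97.4% (control) and 99.3% (Adipo Δ/Δ) also held *Retnla*, close to the 95.9% and 98.3% over all matrix cells. Of the matrix cells with *Ear2*, 79.5% and 81.7% held *Socs6*, against 75.5% and 78.5% over all matrix cells. In resident cells with a *Clec10a* UMI, 84.8% and 84.1% also held *Mgl2*, against 73.8% and 76.4% over all resident cells, and after thinning 57.1% and 68.4% against 51.6% and 56.0%. Conversely, 58.3% and 69.2% of resident cells with *Mgl2* held *Clec10a*. In Ly6C high monocyte-like cells with *Chil3*, 46.0% and 49.4% held *Il13ra1*, against 44.3% and 43.3% over all of them. Deeper cells hold more UMIs of any gene, so that these shares are descriptions.

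Genes with a like pattern were sought by Pearson's r of log2(CPM + 1) over the 17 clusters of both libraries, or 34 points, among 5085 genes with at least 500 UMIs. The points share cells, libraries and depth, and r is given as a description. *Retnla* was most like *Fcrls* (0.915), *Mrc1* (0.841) and *Lyz1* (0.817), and *Mgl2* most like *Fcrls* (0.890), *Dab2* (0.887) and *Mrc1* (0.881). *Clec10a* was nearest to *Cysltr1* (0.826), *Lifr* (0.825) and *Abca9* (0.818), and *Chil3* to *C3* (0.848), *Mgst1* (0.745) and *Apoc2* (0.731). *Ear2* followed *Lrp1* (0.875), *Csf1r* (0.863) and *Arhgef10l* (0.855), and *Socs6* followed *Ehd4* (0.778), *Borcs6* (0.761) and *Pdlim5* (0.760). *Il4ra* was nearest to *Neurl3* (0.911), *Dhx40* (0.897) and *Hexim1* (0.884), *Il13ra1* to *Gm5150* (0.881), *Cebpd* (0.878) and *Tlr2* (0.873), and *Stat6* to *Tmem164* (0.850), *Fbxo11* (0.842) and *Washc2* (0.834). No member had another member among its 3 nearest genes. The closest members were *Retnla* and *Mgl2*, at 0.756.

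The rest of the pathway was followed through 7 lists of 45 genes, from ligands to further targets. The ligands of the receptors were hardly captured. *Il13* had 0 UMIs in both libraries, and *Il4* had 2 UMIs in control cells and 24 in Adipo Δ/Δ cells. The ligand list also held *Il33*, *Il25* and *Tslp*, which encode cytokines that do not bind these receptors. *Il33* and *Il25* had 0 UMIs in both libraries. *Tslp* had 17 and 36 UMIs and was highest in resident macrophage-like cells, at 42.8 and 23.3 CPM. In macrophage-like cells the *Tslp* ratio was 0.346 (0.172 to 0.730), from 13 and 27 UMIs. The *Il13ra2* decoy receptor had 0 UMIs. Of the 45 genes, 32 had at least 10 UMIs in macrophage-like cells, with 7 past the fold upwards, 5 downwards and 20 between, beside the shares of 20.7% and 16% over all genes. In monocyte-like cells it was 15 upwards, none downwards and 17 between, beside 13.7% and 5.66%.

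In macrophage-like cells both shares of the lists were thus close to those of all genes, and the members below are given by role. Of the 4 receptor-bound kinases, *Jak2* had a ratio of 0.530 (0.341 to 0.850), *Tyk2* of 0.650 (0.435 to 0.998) and *Jak1* of 0.982 (0.792 to 1.23). *Jak3*, at 0.571 (0.239 to 1.57) from 7 and 24 UMIs, had an interval that included 1. *Irf4*, a transcription factor of alternative activation, had a ratio of 0.610 (0.460 to 0.820). In matrix macrophage-like cells, its highest group in either library, the intervals overlapped. The Adipo Δ/Δ level of *Irf4* there was 118 CPM (100 to 137), against a control level of 159 CPM (116 to 214). *Pparg*, the nuclear receptor that adds fatty acid metabolism to this programme, had a ratio of 4.52 (2.03 to 12.5) from 6 and 163 UMIs, and *Egr2* a ratio of 3.05 (1.71 to 6.00). *Egr2* also peaked in matrix cells, where its intervals lay apart, at 84.5 CPM (69.7 to 101) against a control level of 25.3 CPM (10.2 to 52.2). *Stat3*, *Stat5a* and *Stat5b* lay between. Ratios of the listed genes were taken over each class as a whole, without weighting of clusters. The part of the class make-up in them was not tested.

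Among the further targets, *Mrc1*, which encodes CD206, peaked in resident macrophage-like cells, at 1607 CPM (1448 to 1778) in control cells and 1473 CPM (1397 to 1553) in cells of Adipo Δ/Δ mice. Over macrophage-like cells as a whole, the *Mrc1* ratio was 0.685 (0.622 to 0.755), from 519 and 2134 UMIs. *Arg1*, which encodes the arginase that is widely used to mark alternative activation in mouse, had 1 and 3 UMIs in macrophage-like cells and was highest in ILC2-like cells, at 455 CPM (345 to 588) and 396 CPM (287 to 534). Besides *Retnla*, the resistin family was represented by *Retnlg* in neutrophil-like cells, at 13926 and 11372 CPM. In monocyte-like cells, *Mrc1* at a ratio of 7.39 (4.89 to 11.5) and *Dok2* at 8.60 (5.45 to 14.1) stood beside *Retnla* and *Mgl2*. All of these had their highest level in resident or matrix macrophage-like cells, but other cells held them too. Macrophage-like cells held 160 of 731 *Dok2* UMIs in control and 879 of 1661 in Adipo Δ/Δ. Dendritic cell-like cells held 34.2% and 13.7% of *Mgl2* UMIs. How much of the monocyte-like level of each gene was free RNA was not tested.

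Genes of classical activation, the interferon and endotoxin response that is usually set against the type 2 state, were counted for comparison. In macrophage-like cells 2 of the 5 with enough UMIs were past the fold upwards (*Tnf* and *Cxcl9*), beside 20.7% of all genes, and in monocyte-like cells 5 of 6 were (*Il1b*, *Cxcl9*, *Cxcl10*, *Cd86* and *Cd80*), beside 13.7%. The *Tnf* ratio of 2.41 (0.894 to 9.16) rested on 4 and 58 UMIs, and its interval included 1. *Cxcl10*, which encodes an interferon-induced chemokine, had a ratio of 3.86 (3.19 to 4.68) in monocyte-like cells, and *Il1b* a ratio of 1.58 (1.38 to 1.81). Most *Il1b* UMIs, 6187 of 6772 in control and 4643 of 5403 in Adipo Δ/Δ, lay in neutrophil-like cells. The *Il1b* levels were 5834 and 9472 CPM there, and 109 and 172 CPM in monocyte-like cells. How much of the latter was background was not tested. Few cells carried *Cxcl10*, with 153 of 162 control UMIs in 22 of 332 Ly6C high cells and 294 of 341 Adipo Δ/Δ UMIs in 15 of 157, of which 72 lay in 1 cell. *Nos2* and *Il12b* had 0 UMIs in both libraries.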

How the data were processed

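Per the labels and the study's methods, the authors sorted CD45+ DAPI- cells of mouse BAT, prepared 10x Genomics 3′ v3.1 libraries and counted UMIs with Cell Ranger (4.0.0 in the file headers) on mm10, and deposited whole-number counts per gene and cell, not normalized. Raw libraries held 2597 (control) and 2381 (Adipo Δ/Δ) barcodes with 11327187 and 12028844 UMIs. Here, cells were retained if they had 200 or more genes and no more than 10% mitochondrial UMIs, then normalized with sctransform 0.4.2 and integrated in Seurat 5.3.0 (R 4.3.3) on 1963 of 2000 selected features, after removal of the 9 genes and the other listed pathway genes, and clustered on 20 principal components at a resolution of 1.0. Clusters were named by the highest marker score (0.5 or more, a margin of 0.25 over the next list and 3 markers present in 10% of cells), thresholds set after the data were seen. Clusters without a name, among them dividing cells, held 2.46% (control) and 3.82% (Adipo Δ/Δ) of cells. Scrublet in Scanpy 1.11.5 called 8 and 6 barcodes (0.308% and 0.252%), which were left in.

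UMIs were summed per cell group and library and given as CPM with exact Poisson intervals, shares with Clopper-Pearson intervals and ratios with conditional binomial intervals (SciPy 1.17.1). A count of 0 is given with the level that 3 UMIs would have. Shares were also computed after thinning to 1000 UMIs, which left out 199 control and 259 Adipo Δ/Δ cells. The 3′ tags do not scale with transcript length, and levels are not compared between genes. In place of a test, the 9 genes' counts past 1.5-fold are set beside those of all genes with at least 10 UMIs. Ratio intervals were tried on simulated counts that held counting error alone. Such counts cannot show how the intervals perform where UMIs spread further between cells. The text names the 9 genes, genes of the lists by count with those described by role, and the 3 genes most alike in pattern to each. The members and lists were chosen with earlier results of these data known. Alternatives changed filters, clustering, denominator, thinning and weighting. Protein sequences were not analysed here.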

Additional observations from a re-analysis of the deposited data

How the results depend on the processing

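With 1 library per condition, differences between conditions cannot be told from differences between libraries. No paired analysis was possible because each condition has 1 library and no result comes from a test. Over 18 log2 ratios (9 genes in both classes) and 13 alternatives, 203 of 234 values moved by less than their counting interval and 31 moved by more. No gene past the fold as reported changed direction. *Clec10a* in monocyte-like cells was past the fold upwards with a minimum of 500 genes (log2 ratio 0.69) and downwards after thinning (-0.69), and *Socs6* in macrophage-like cells was at -0.91 with a mitochondrial limit of 5% and 0.41 after thinning. The cells holding the highest level were kept for 7 to 9 of the 9 genes. The exceptions were *Ear2*, which was highest in matrix macrophage-like cells, and *Il4ra* and *Stat6*, which were highest in B cell-like cells, under some settings.

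In macrophage-like cells the count past the fold upwards, 0 as reported, was 1 (*Chil3*) with a mitochondrial limit of 5%, a minimum of 500 genes, a resolution of 0.5, pathway genes kept as features, or without the cells that matched no subset. The count downwards, 2 as reported, was 4 with a mitochondrial limit of 5%, a resolution of 0.5, libraries merged without integration, or without the cells that matched no subset. It was 1 (*Il4ra*) after thinning and 0 with weighted clusters or a fold of 2. In monocyte-like cells the count upwards, 2 as reported, was 4 with a minimum of 500 genes, which added *Clec10a* and *Ear2*, and 1 (*Retnla*) after thinning. The count downwards, 0 as reported, was 1 (*Chil3*) with a minimum of 500 genes, 30 principal components or without the cell richest in the gene, and 2 (*Chil3* and *Clec10a*) after thinning. The causes were not tested. Thinning also moved the median log2 ratio of all genes in macrophage-like cells from 0.07 to 0.21.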
